A study of Mus musculus with 6 samples.

Results

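The genes described here are 10 members of the co-inhibitory module of T cells. These are the receptor genes Pdcd1, Ctla4, Lag3, Havcr2, Tigit, Btla, Cd160 and Cd5, the ligand gene Cd200, and the nuclear factor gene Tox. They were found by symbol in a table of 23203 loci, and each of the 10 matched 1 locus that names no other gene. The set was chosen by results of the comparison of 2DG with vehicle that were already known, as was the contrast of Pdcd1 with Ctla4, so the members' values in that comparison are a description and carry no test of their own. The libraries came from naive mouse CD4 T cells stimulated for 48 h through plate-bound anti-CD3e at 10 µg/ml and anti-CD28 at 1 µg/ml, together with the cytokines TGFb1 at 2.5 ng/ml, IL-23 at 10 ng/ml and IL-6 at 20 ng/ml, conditions that produce Th17 cells, the helper cells that make IL-17. All cultures shared this mix. One group of 3 received DMSO as vehicle, and the other group of 3 received 2DG (2-deoxyglucose) at 250 µM, an analogue of glucose with which glycolysis is commonly blocked; glycolysis itself was not measured. Strain, sex and age of the mice were not given in the labels used, nor did they say if the 3 libraries in each group were made from different mice or wells. Replicates 1, 2 and 3 carry the title numbers 17, 42 and 43 in both groups, and what these numbers mark was not stated.

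Co-inhibitory receptors restrain a T cell after its antigen receptor has fired, and most of them appear or increase with activation. PD-1, the product of Pdcd1, binds PD-L1 and PD-L2 and recruits the phosphatase SHP-2 to its tail. CTLA-4 competes with the activating receptor CD28 for CD80 and CD86 and is held largely inside the cell. TIGIT competes with CD226 for the ligand encoded by Pvr, while BTLA and CD160 bind HVEM, and LAG-3 binds MHC class II among other ligands. TIM-3, from Havcr2, is linked to galectin-9, CD5 dampens antigen receptor signals from the naive stage on, and CD200 signals to its receptor on other cells. TOX is a DNA-binding factor best known for its part in the state of chronically stimulated T cells with high PD-1.

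The promoters of Pdcd1 and Ctla4 are shown because these 2 genes, both on chromosome 1, were called in opposite directions. Each run gives the 250 bases before the RefSeq start site (GRCm38.p6), read 5′ to 3′ on the gene's own strand. Capitals mark the core letters bound by NFAT, a factor activated by the antigen receptor, as GGAAA or its complement. These letters include GGAA, the core bound by ETS factors.
Pdcd1, chr1:94052554-94052803, minus strand: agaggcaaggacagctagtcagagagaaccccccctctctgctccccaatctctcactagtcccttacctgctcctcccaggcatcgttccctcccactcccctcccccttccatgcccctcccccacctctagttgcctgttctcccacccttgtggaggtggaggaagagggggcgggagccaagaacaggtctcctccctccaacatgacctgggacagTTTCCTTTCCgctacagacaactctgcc
Ctla4, chr1:60908775-60909024, plus strand: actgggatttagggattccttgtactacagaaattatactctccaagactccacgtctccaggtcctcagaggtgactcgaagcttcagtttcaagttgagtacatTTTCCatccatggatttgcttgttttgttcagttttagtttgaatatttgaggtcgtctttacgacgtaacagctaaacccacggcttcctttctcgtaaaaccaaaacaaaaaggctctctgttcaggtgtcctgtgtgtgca
The Pdcd1 window held 2 NFAT cores, which began 28 and 23 bases before the start site, and 1 ROR half-site (AGGTCA), which began 41 bases before it. The Ctla4 window held 1 NFAT core, 144 bases before the start site, and no ROR half-site. The RefSeq start of Ctla4 lies inside the longer gene that GENCODE M21 annotates. Neither window held the AP-1 motif TGANTCA or the T-box motif GGTGTGA.

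Promoters were listed for 8 of the 10 genes, 9 in all because Cd160 has 2, and not for Lag3 or Tox. Searched on both strands, the NFAT core was present in 4 of the 9, against 55.6% of the 32851 promoters of the same length. The ROR half-site was present in 2 (14.0% of all promoters), those of Pdcd1 and Havcr2, AP-1 in 1 (6.75%), that of Havcr2, and the T-box motif in 1 (3.33%), a Cd160 promoter. A match describes letters only, and no binding was measured.

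The libraries were alike in identity. The T cell genes Cd3e and Cd4 were at 42.8 to 56.3 and 82.3 to 108 FPKM (fragments per kilobase of transcript, scaled by the library's mapped fragments). Defining genes of other cells that can carry these receptors were low: Cd8a was at most 0.592 FPKM, the NK genes Klrb1c and Klra8 (a locus shared with Klra21) were listed at 0 throughout, and summed levels were 0.0945 to 3.71 FPKM over 5 B cell genes and 0.294 to 1.34 FPKM over 5 dendritic cell genes. Of 7 NK, 6 myeloid and 2 CD8 genes, the sums were 2.19 to 4.08, 1.34 to 4.71 and 2.68 to 5.51 FPKM, the last mostly from Cd8b1. Among the NK genes Klre1 was at 0.596 to 2.08 FPKM, and Gzma and Prf1 reached 2.23 and 1.63 FPKM. Sox13, the 1 gamma delta T cell gene of 3 that matched a locus, was at 0.0505 FPKM in vehicle replicate 1 and at 0 elsewhere. Rn45s, the ribosomal RNA precursor, set replicate 1 of each group apart, listed at 12874 and 7186 FPKM there and at 0 in the other 4. In bulk RNA, fewer cells with a transcript and less transcript per cell cannot be told apart. Read counts were not used here, so the depth behind each value is unknown.

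In vehicle-treated Th17 cells the 10 genes spanned a wide range of levels, which FPKM allows to be set side by side because it is per length. Ctla4 was the highest at 587 ± 30.2 FPKM (mean ± SD, n = 3 for each group in all values of this kind), above 98.5% of the loci that passed the filter of a mean of at least 1 FPKM. Cd5 followed at 245 ± 7.81 FPKM. Cd200 (38.1 ± 11.1), Pdcd1 (37.0 ± 7.79) and Btla (29.7 ± 5.08 FPKM) came next, and the ranges of neighbours in this trio overlapped. Lag3 was at 18.0 ± 6.07 FPKM and its range overlapped that of Btla, although it was below Btla in 3 of 3 libraries. Tox (3.45 ± 1.33) and Tigit (2.65 ± 1.25 FPKM) were low and overlapped. Cd160 and Havcr2 were at the bottom, at 0.182 ± 0.131 and 0.173 ± 0.0475 FPKM, with overlapping ranges.

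With 2DG the order of the means changed in the middle. Ctla4 and Cd5 kept the first places at 389 ± 27.9 and 226 ± 3.13 FPKM. Pdcd1, at 96.6 ± 14.8 FPKM, stood above Cd200 at 64.6 ± 11.0 FPKM in 3 of 3 libraries with no overlap. With vehicle the ranges of these 2 genes had overlapped, and Cd200 was above Pdcd1 in only 1 of 3 libraries. Btla (37.1 ± 6.49) and Lag3 (30.8 ± 5.99 FPKM) overlapped. Tox, at 11.0 ± 0.945 FPKM, stood clear of Tigit at 1.94 ± 1.19 FPKM. Cd160 at 0.563 ± 0.164 FPKM overlapped Tigit and lay above Havcr2 at 0.0718 ± 0.0135 FPKM without overlap.

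**Figure D1:**
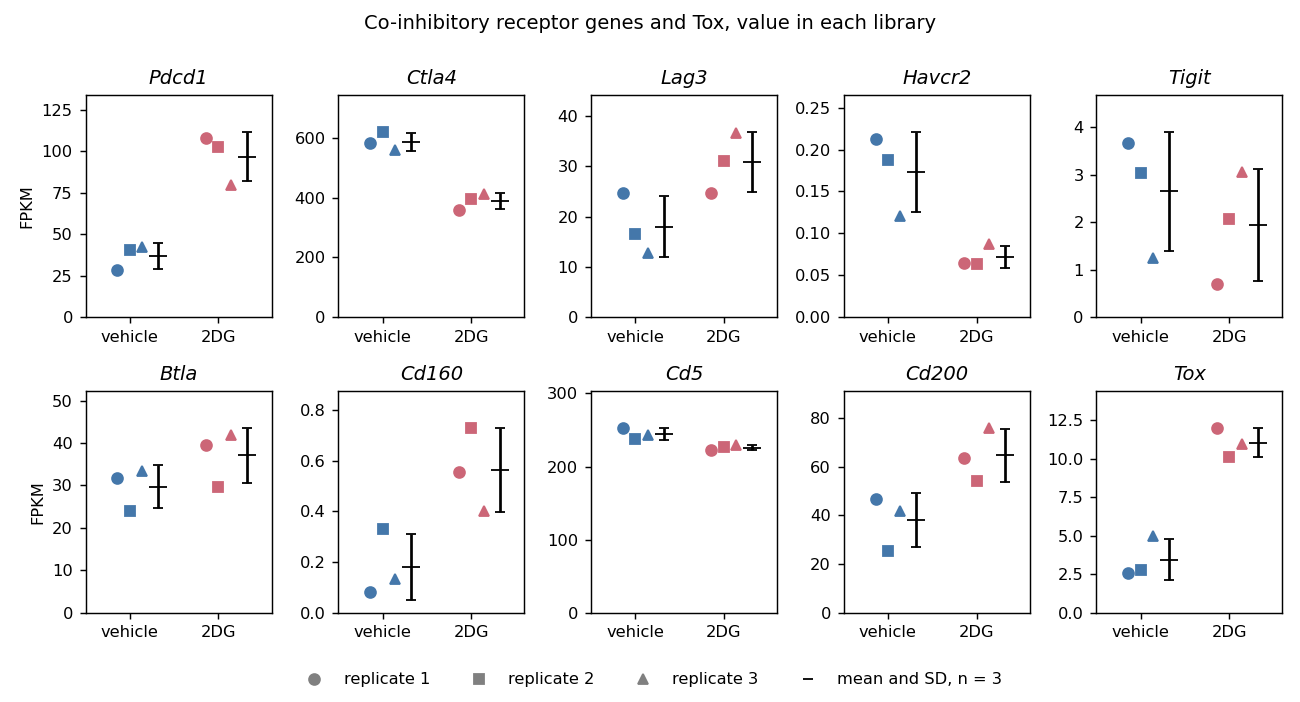
FPKM (vertical axes, each from 0) of the 10 genes in the 3 vehicle (blue) and 3 2DG libraries (red), with symbols for the replicate numbers and a bar for the mean and SD of each group. The 2DG libraries lie above the vehicle libraries for Pdcd1, Tox, Cd200 and Cd160 and below them for Ctla4, Cd5 and Havcr2, while the groups overlap for Lag3, Btla and Tigit.

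Of the 10 genes, 8 passed the filter and were tested with 2DG against vehicle by limma over all 10228 such loci, where a call is a Benjamini-Hochberg adjusted p under 0.05. Of these, 2 were called higher, Pdcd1 and Tox, and 1 was called lower, Ctla4. None of these 3 calls held under every alternative run. Among all tested loci 1.53% were called higher and 1.19% lower, 2.72% in either direction; since the genes were chosen with this comparison known, nothing is read from their share. The groups did not overlap for 5 of the 8, against 23.7% of all tested loci. The median log2 fold change was 0.54 over the 8 genes (0.35 without vehicle replicate 2) and -0.01 over all tested loci.

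Pdcd1 (locus XLOC_000930, chromosome 1, 94038305 to 94052553, GRCm38, from GENCODE M21 as are all gene positions here) was at 28.1, 40.5 and 42.5 FPKM with vehicle and at 108, 102 and 79.7 FPKM with 2DG. Every 2DG library was above every vehicle library, and the lowest 2DG value was replicate 3. The mean rose 2.61-fold, with a log2 fold change of 1.37 ± 0.18 (SE) on the scale of log2(FPKM + 1), which all log2 fold changes here use. The call was lost without 2DG replicate 1 (log2 fold change 1.29) or 2DG replicate 2 (1.32).

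Ctla4 (XLOC_000149, chromosome 1, 60887000 to 60915832) was at 584, 619 and 559 FPKM with vehicle and at 358, 395 and 412 FPKM with 2DG. The groups were separate, with the spread within each smaller than the gap between them. With 2DG the mean fell by 33.8%, and the log2 value fell by 0.60 ± 0.09 (SE). The call needed all 6 libraries: without any 1 of them it was lost, while the log2 fold change stayed between -0.64 and -0.54. It was also lost after rescaling the libraries to equal FPKM sums (-0.58), of which small RNA genes made up 72.1% to 78.2%. The call held with these genes left out of the sums (-0.55, limma adjusted p = 0.014) and with quantile normalization (-0.52, adjusted p = 0.022).

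The opposite direction of these 2 genes shifted their balance in every library. Ctla4 was 20.8, 15.3 and 13.1 times the level of Pdcd1 with vehicle, and 3.32, 3.86 and 5.17 times with 2DG. No 2DG library reached the lowest vehicle ratio. The log2 fold change of Pdcd1 exceeded that of Ctla4 by 1.97, while the log2 ratio of the 2 genes had an SD of 0.32 within a group; with 1 library left out the difference was between 1.79 and 2.14. Ctla4 made up 61.1% ± 2.41 of the summed FPKM of the 10 genes with vehicle and 45.3% ± 1.86 with 2DG. The share of Pdcd1 was 3.86% ± 0.864 and 11.3% ± 2.10, and that of Cd5 25.5% ± 0.821 and 26.4% ± 0.587. The sum itself was 961 ± 19.1 FPKM in vehicle libraries and 857 ± 30.6 FPKM with 2DG.

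**Figure D2:**
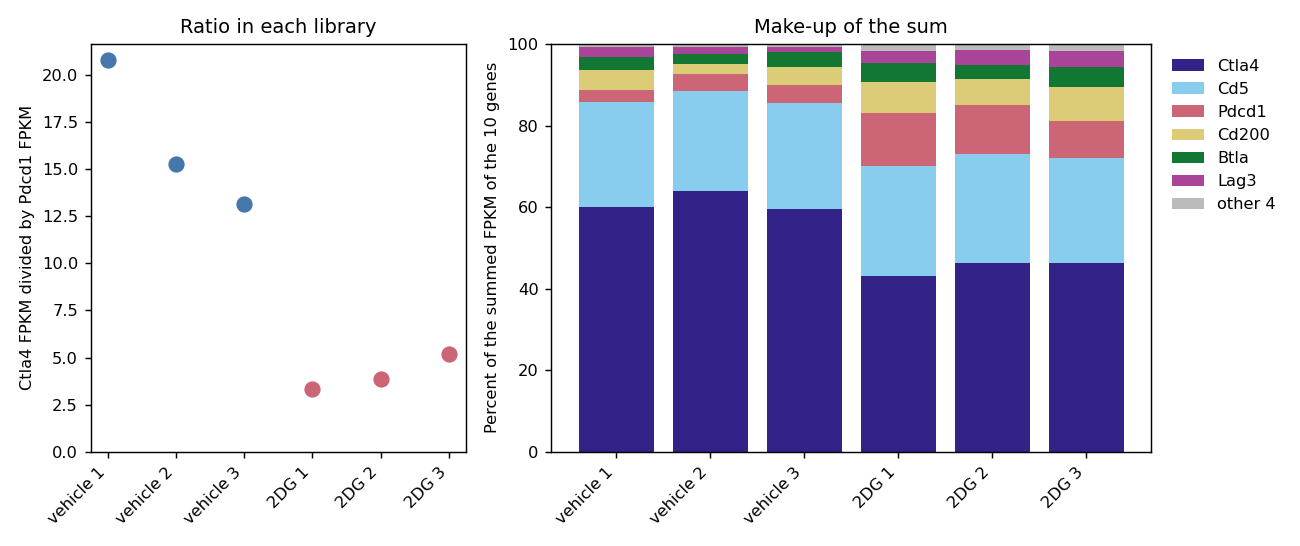
Left, Ctla4 FPKM divided by Pdcd1 FPKM (vertical axis from 0) in each library; right, the percent of the summed FPKM of the 10 genes that each gene took, with the 4 lowest genes joined. The ratio is between 13.1 and 20.8 in the vehicle libraries (blue) and between 3.32 and 5.17 in the 2DG libraries (red), and the band of Ctla4 is narrower and that of Pdcd1 wider with 2DG.

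Tox (XLOC_014323, chromosome 4, 6686353 to 6991557) was at 2.55, 2.81 and 4.98 FPKM with vehicle and at 12.0, 10.1 and 11.0 FPKM with 2DG. The 2DG libraries lay close together and well above all vehicle libraries. The mean rose 3.20-fold, with a log2 fold change of 1.47 ± 0.20 (SE). Omitting replicate 2 of vehicle (1.38) or replicate 1 (1.42) or 2 (1.53) of 2DG ended its call.

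Cd200 and Lag3 had higher means with 2DG but were not called. Cd200 (XLOC_007999, chromosome 16, 45382135 to 45409053), the gene of a ligand that quiets myeloid cells, was at 46.7, 25.5 and 41.9 FPKM in vehicle libraries and 63.7, 54.1 and 76.0 FPKM with 2DG. Its groups did not overlap, and its log2 fold change was 0.78 ± 0.23 (SE). Lag3 (XLOC_017431, chromosome 6, 124904361 to 124911705) was at 24.7, 16.5 and 12.8 FPKM in vehicle libraries and 24.7, 31.1 and 36.7 FPKM with 2DG. The groups of Lag3 overlapped only through replicate 1, where the highest vehicle and the lowest 2DG value were nearly equal, and its log2 fold change was 0.77 ± 0.24 (SE).

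Of the HVEM receptors, Btla was well above the filter and Cd160 below it. Btla (XLOC_007666, chromosome 16, 45224315 to 45257670) was at 31.8, 23.9 and 33.4 FPKM in vehicle libraries and 39.6, 29.7 and 42.0 FPKM with 2DG. Replicate 2 was the lowest library of Btla in both groups, the groups overlapped, and the log2 fold change was 0.31 ± 0.17 (SE), with 0.17 without vehicle replicate 2 and 0.46 without 2DG replicate 2. Vehicle replicate 2, lowest for both Btla and Cd200, had the highest summed level of the 5 B cell genes, 3.71 FPKM, whose part in these values was not tested. Cd160 (XLOC_013412, chromosome 3, 96798763 to 96829351) was under the filter and not tested, at 0.0819, 0.330 and 0.134 FPKM in vehicle libraries and 0.557, 0.730 and 0.402 FPKM with 2DG. All its 2DG values were above its vehicle values, and all 6 were below 1 FPKM.

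Cd5 was nearly level. It was at 253, 238 and 243 FPKM in vehicle libraries and 223, 226 and 229 FPKM with 2DG (XLOC_010337, chromosome 19, 10717116 to 10739002). The groups did not overlap, but the difference of the means was -7.67%, and the log2 fold change was -0.11 ± 0.07 (SE), which was not called. Tigit (XLOC_007989, chromosome 16, 43648867 to 43664146) varied widely between libraries, at 3.66, 3.04 and 1.26 FPKM in vehicle libraries and 0.689, 2.08 and 3.05 FPKM with 2DG. Its groups overlapped, and its log2 fold change of -0.34 ± 0.38 (SE) changed sign to 0.019 without 2DG replicate 1. Havcr2 (XLOC_002486, chromosome 11, 46454935 to 46481255) was barely present, at 0.212, 0.187 and 0.120 FPKM in vehicle libraries and 0.0649, 0.0632 and 0.0874 FPKM with 2DG, and was not tested.

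Without the replicate 1 libraries of both groups, the log2 fold change was 1.10 for Pdcd1, 1.27 for Tox, 1.16 for Lag3, 0.95 for Cd200, 0.31 for Btla, -0.08 for Cd5, 0.23 for Tigit and -0.54 for Ctla4. In that fit Pdcd1 was the only one of them called.

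**Figure D3:**
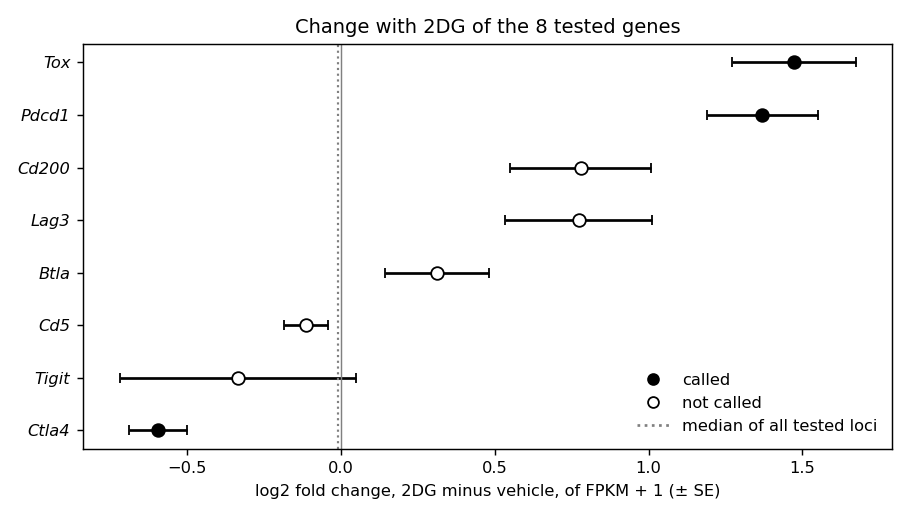
Log2 fold change of FPKM + 1, 2DG minus vehicle (horizontal axis), with its SE for the 8 tested genes, ordered by size; filled points were called and the dotted line is the median of all tested loci. Tox (1.47) and Pdcd1 (1.37) lie farthest to the right and Ctla4 (-0.60) farthest to the left.

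Genes that act with these receptors were read from 6 lists written for this purpose, 122 genes in all, of which 102 were tested. Of these 102, 9 rose and 7 fell with 2DG, against 1.53% and 1.19% of all tested loci. Their median log2 fold change was 0.06. The lists were written with earlier results of these data known.

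Among ligands and binding partners, 1 of 11 tested genes rose and 1 fell, with a median of 0.27. Omitting replicate 3 of vehicle moved that median to 0.11 and omitting replicate 2 of 2DG to 0.15, and it was 0.10 with a minimum mean of 5 FPKM and 0.013 with no filter. Pdcd1lg2, which encodes the PD-1 ligand PD-L2, was at 2.09, 2.93 and 2.97 FPKM in vehicle libraries and 6.31, 6.29 and 6.17 FPKM with 2DG, a rise of 1.00 ± 0.13 on the log2 scale (SE, limma adjusted p = 0.016). Cd86, a ligand shared by CTLA-4 and CD28, was at 6.42, 8.80 and 7.24 FPKM and then 1.12, 2.12 and 1.81 FPKM, which is -1.67 ± 0.18 on the log2 scale (SE, adjusted p = 0.0078). The groups of both genes were well apart. B cells, myeloid cells and dendritic cells also express these ligands; their markers were mostly too low to test, with 0 of 5 B cell, 0 of 5 dendritic cell and 2 of 6 myeloid genes past the filter. The summed levels of these markers overlapped between the groups, and their part in the ligand values was not tested. The other PD-1 ligand gene, Cd274, was at 3.48 ± 0.796 and 4.46 ± 0.201 FPKM (adjusted p = 0.34). Cd80 stayed under 1 FPKM in every library and was not tested, as was Cd200r1 for its low mean. Pvr (11.9 and 9.28 FPKM), Tnfrsf14 for HVEM (20.1 and 23.2 FPKM) and Lgals9 for galectin-9 (21.8 FPKM in both groups) had overlapping groups and did not pass (adjusted p = 0.40, 0.73 and 1.00).

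In the list of activating counterparts, 3 of 10 tested genes rose and 1 fell, with a median of -0.11. By limma 9 of the 10 had an unadjusted p under 0.05. The share of all tested loci under that threshold is not given here. Nothing is therefore read from this count or from the other unadjusted counts below. Among those not called, the means of Tnfrsf18 (224 to 94.7 FPKM), Tnfrsf4 (283 to 193 FPKM) and Tnfrsf9 (137 to 71.4 FPKM) were lower with 2DG. The mean of Slamf1 (20.7 to 26.5 FPKM) was higher, and Cd28 and Icos are given below. With 1 library left out the median ran from -0.22 (2DG replicate 3) to -0.027 (2DG replicate 1), and it turned to 0.046 with replicates 2 and 3 only. The receptors around TIGIT moved apart. Cd226, the activating rival of TIGIT, was at 11.2, 9.58 and 7.72 FPKM in vehicle libraries and 3.54, 3.38 and 4.54 FPKM with 2DG, which is -1.12 ± 0.15 on the log2 scale (SE, adjusted p = 0.017). Cd96, another receptor of the same family, for which inhibitory roles are also described, was at 3.10, 2.91 and 2.25 FPKM and then 9.13, 9.75 and 8.16 FPKM (1.42 ± 0.13, SE, adjusted p = 0.0040). Crtam, a related surface receptor of activated lymphocytes, rose 5.16-fold to 13.6 ± 1.06 FPKM (adjusted p = 0.0016). Cd40lg, the gene of the helper molecule CD40L, rose 2.17-fold to 16.1 ± 1.78 FPKM (adjusted p = 0.036).

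The neighbours of Ctla4 on chromosome 1 are Cd28 (60716800 to 60773359) and Icos (60977927 to 61000320), genes of 2 activating receptors of its family. Cd28 was at 169, 130 and 153 FPKM in vehicle libraries and 171, 151 and 233 FPKM with 2DG (adjusted p = 0.47). Icos was at 51.8, 77.6 and 80.1 FPKM and then 49.9, 44.1 and 51.9 FPKM (adjusted p = 0.19). Neither passed, and the groups of each overlapped. Ctla4 was 3.46, 4.76 and 3.66 times the level of Cd28 with vehicle and 2.10, 2.61 and 1.77 times with 2DG, with no overlap of the groups. Cd4, beside Lag3 on chromosome 6, was at 102 ± 8.82 and 94.1 ± 10.3 FPKM (adjusted p = 0.64), and Cd6, a relative of Cd5 beside it on chromosome 19, at 140 ± 5.51 and 135 ± 4.37 FPKM (adjusted p = 0.76). With Btla and Cd200, 0 of these 6 neighbouring genes passed by limma, and 2 had an unadjusted p under 0.05.

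None of 7 tested genes in the list of other inhibitory receptors passed by limma (median -0.22), and 1 had an unadjusted p under 0.05. With 1 library left out this median ran from -0.40 (vehicle replicate 1) to -0.031 (2DG replicate 1). Another 8 of its 15 genes were not tested, 1 because no locus matched and 7 that were below 1 FPKM in every library. In the list of inhibitory signalling 0 of 29 tested genes rose and 3 fell, with a median of -0.01. Dgka, a kinase that removes the messenger diacylglycerol, went from 82.6 ± 12.2 to 53.1 ± 2.47 FPKM (adjusted p = 0.039). The adaptor genes Dok2 and Sla2, whose products restrain antigen receptor signalling, went from 31.4 ± 3.14 to 18.5 ± 3.04 FPKM and from 5.08 ± 0.351 to 2.86 ± 0.494 FPKM (adjusted p = 0.041 and 0.045). The phosphatase genes that serve receptor tails did not pass: Ptpn6, for SHP-1, was at 119 ± 14.0 and 127 ± 17.3 FPKM (adjusted p = 0.79), Ptpn11, for SHP-2, at 27.5 ± 2.66 and 30.2 ± 1.00 FPKM (0.50), and Inpp5d, for SHIP-1, at 32.3 ± 2.96 and 23.6 ± 3.98 FPKM (0.14). Of 10 tested genes of CTLA-4 trafficking 0 passed by limma and 2 had an unadjusted p under 0.05. Lrba, which protects CTLA-4 from degradation, was at 13.5 ± 1.44 and 14.5 ± 1.98 FPKM (adjusted p = 0.73), and Trat1, for a CTLA-4 chaperone, at 3.41 ± 0.683 and 4.81 ± 1.82 FPKM (0.48).

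Among transcription factors linked to these receptors, 5 of 35 tested genes rose and 2 fell, with a median of 0.11 that ran from 0.043 (without vehicle replicate 1) to 0.15 (without 2DG replicate 3). Tox2, a relative of Tox, was at 0.106, 0.378 and 0.0906 FPKM in vehicle libraries and 2.61, 1.82 and 1.17 FPKM with 2DG (adjusted p = 0.037), and passed the filter only through the 2DG libraries. Bcl6, a repressor that directs follicular helper T cells, was at 0.992, 2.30 and 2.28 FPKM and then 6.32, 6.65 and 6.85 FPKM (adjusted p = 0.018). Tbx21, for T-bet, rose 2.50-fold to 5.33 ± 0.793 FPKM and Id2, an inhibitor of E proteins, 2.02-fold to 146 ± 10.1 FPKM (adjusted p = 0.016 and 0.017). Egr3, named after its values were seen, also rose (adjusted p = 0.042). Ets1, which supports T cell development, went from 297 ± 16.6 to 202 ± 4.56 FPKM and Myb from 12.0 ± 0.688 to 7.14 ± 0.635 FPKM (adjusted p = 0.018 for both).

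The other regulators of Pdcd1 from the list of transcription factors that are named next did not pass where tested. Nfatc1 was at 14.6 ± 0.733 and 18.8 ± 0.560 FPKM with separate groups (adjusted p = 0.068), Nfatc2 at 8.10 ± 0.508 and 8.86 ± 0.795 FPKM (0.60), and Nr4a1 at 47.4 ± 6.05 and 36.5 ± 6.86 FPKM (0.25). Tcf7 was at 27.9 ± 2.03 and 29.4 ± 3.13 FPKM (0.78) and Maf at 93.3 ± 15.3 and 105 ± 15.4 FPKM (0.63). Prdm1, for Blimp-1, and Eomes were below 1 FPKM in every library and were not tested. Foxp3, the factor of regulatory T cells, which express much CTLA-4, is listed in a locus shared with 4930524L23Rik and was looked at after its values were seen. It was at 2.47, 14.6 and 9.39 FPKM in vehicle libraries and 5.46, 6.79 and 3.49 FPKM with 2DG (limma adjusted p = 0.72). The means were 8.81 FPKM with vehicle and 5.24 FPKM with 2DG, and the groups overlapped. The part of Foxp3-expressing cells in the Ctla4 values was not tested.

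Of the 16 pathway genes called, Cd86, Cd96 and Crtam were still called whichever library was omitted (highest limma adjusted p = 0.034, 0.024 and 0.012). Pdcd1lg2 lost it without 2DG replicate 1 or 2 (highest adjusted p = 0.065). Dgka, Dok2 and Egr3 lost it without any 1 library (highest 0.14, 0.13 and 0.14). Sla2 kept it only without 2DG replicate 3, and Cd40lg only without vehicle replicate 3 (highest 0.16 and 0.13). Tox2 fell under the filter without 2DG replicate 1 or 2, lost its call without any vehicle library (highest 0.10) and kept it without 2DG replicate 3. Tbx21, Id2 and Cd226 lost their calls without 2DG replicate 1 or 2, and also without replicate 2 of vehicle (highest 0.068, 0.066 and 0.072). Myb lost its call without these or vehicle replicate 3 (0.077), Ets1 without these or 2DG replicate 3 (0.080), and Bcl6 without any 2DG library (0.070).

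**Figure D4:**
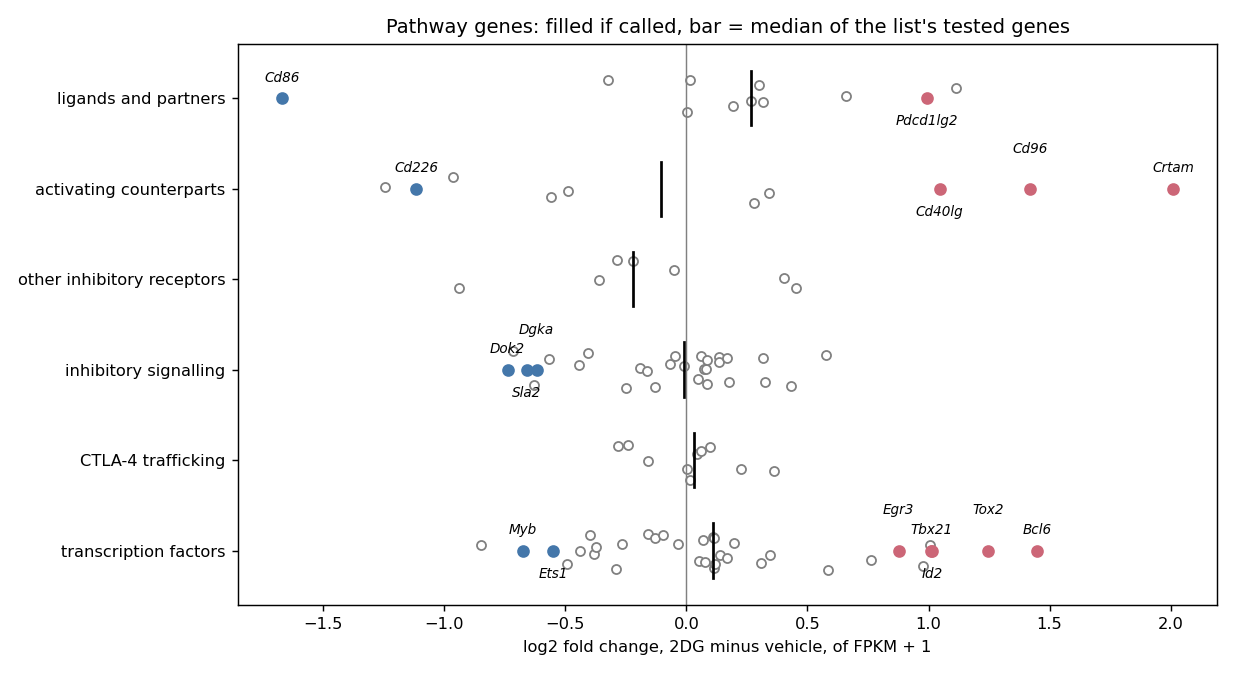
Log2 fold change of FPKM + 1, 2DG minus vehicle (horizontal axis), of the tested genes in the 6 pathway lists (rows); filled and named points were called higher (red) or lower (blue), open points were not called, their vertical scatter has no meaning, and the black bar is the list's median. Crtam (2.01), Bcl6 (1.45) and Cd96 (1.42) are the highest called genes and Cd86 (-1.67) the lowest.

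The loci whose pattern over the 6 libraries was most like that of a member were ranked by Pearson's r of log2(FPKM + 1), as a description that includes the difference between groups. Most like Pdcd1 were Runx1 (r = 0.998), a locus whose symbol the table gives as a calendar date (r = 0.998) and Fcrl1 (r = 0.997). Most like Ctla4 were Cd2 (r = 0.996), Pmpca (r = 0.995) and Ndufb11 (r = 0.995). Runx1, a transcription factor gene, was at 9.62, 12.6 and 12.8 FPKM in vehicle libraries and 23.3, 22.9 and 18.4 FPKM with 2DG. Cd2, the gene of an adhesion receptor, was at 489, 539 and 468 FPKM and then 194, 212 and 241 FPKM. Within the 10 genes, r with Pdcd1 was 0.957 for Tox, 0.641 for Cd200, 0.562 for Lag3 and 0.478 for Btla. It was -0.970 for Cd5, -0.953 for Ctla4 and -0.533 for Tigit.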

How the data were processed

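RNA-seq was read from 6 libraries of mouse Th17 cultures, 3 with vehicle and 3 with 250 µM 2DG, grouped by their labels. The authors deposited a table of FPKM values per locus; per the submitters' processing notes the tools were Cuffdiff 2.2.1.3, Cuffnorm 2.2.1.1, Cufflinks 2.2.1.0 and TopHat2 2.1.0, on mm10. The table's header does not name the unit, which was taken from these tools and the layout. Annotation, strand setting and other options were not given in the sources used here.

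From there, log2(FPKM + 1) was fitted with limma 3.58.1 (R 4.3.3; group only, empirical Bayes with trend) over the 10228 of 23203 loci that averaged 1 FPKM or more, with Benjamini-Hochberg adjustment and a threshold of 0.05. The fit was tested on simulated data with independent normal noise at the fitted spread. Those data held no replicate effect, so they do not bear on the calls in these libraries. An exact permutation test of 3 against 3 cannot go below 0.1. Since the labels name no separate animals, p-values reflect only how these libraries spread, possibly for technical reasons. The members and lists were chosen with earlier results of these data known.

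Named genes were the 10 members, up to 6 called genes per list by smallest p, a set of ligands, rival receptors, neighbours and regulators given in any case, and the 3 loci most like Pdcd1 and Ctla4. Sequences came from RefSeq (GRCm38.p6). Alternatives covered the pseudocount, filter, scaling, moderation, replicate block and omission of each library; those on replicate 1 and on small RNA genes were added after seeing the data.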

Additional observations from a re-analysis of the deposited data

How the results depend on the processing

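Pdcd1, Tox and Ctla4 kept their direction under every alternative run, and Pdcd1 minus Ctla4 stayed between 1.65 (replicates 2 and 3 only) and 2.14 in log2 fold change. Numbers of calls moved more. Over all loci 278 were called, against 165 with no filter, 157 with equal FPKM sums, 446 with robust moderation and 79 to 167 with 1 library left out. With choices made after seeing the data, it was 71 with replicates 2 and 3 only, 184 with a term for replicate 1 and 514 with small RNA genes left out. Members called higher were 2, and 0 to 2 with 1 library left out and 1 with replicates 2 and 3 only. Members called lower were 1, and 0 with equal sums, without any 1 library (0 to 0) and with replicates 2 and 3 only. At an unadjusted p under 0.05 by limma, 4 or 5 members were higher and 1 lower in each of these. The share of all loci under that unadjusted threshold is not given here. Pathway genes called higher were 9, and 4 with a minimum mean of 5 FPKM, 14 with robust moderation, 2 to 7 with 1 library left out, 4 with replicates 2 and 3 only and 15 without small RNA genes. Pathway genes called lower were 7, and 4 with no filter, 3 with equal sums, 1 to 5 with 1 library left out, 1 with replicates 2 and 3 only, 4 with the replicate 1 term and 12 without small RNA genes. Tigit lay between -0.65 and 0.019 with 1 library left out, changing sign without 2DG replicate 1, and was 0.23 with replicates 2 and 3 only. The cause of these moves was not tested.

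The titles of both groups share the numbers 17, 42 and 43 (replicates 1, 2 and 3), which could mark shared animals or days, but no label says what they mark. Deviations from the group means correlated at -0.05, 0.19 and -0.11 for numbers 1, 2 and 3, and not every library correlated best with its own number. With the replicate block 101 loci were called, members 0 higher and 0 lower, so that Pdcd1, Tox and Ctla4 were not called (5 and 1 at an unadjusted p under 0.05, limma), and pathway genes 5 higher and 1 lower. Depth is unknown, so no counting error can be given for the low values of Havcr2, Cd160 and Tigit.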

Other observations

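The table gives a calendar date in place of a gene symbol for 24 loci, of which 16 were tested and 1 was called, the locus whose pattern was among those most like Pdcd1. No gene name was assigned to them.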
